A study of Mus musculus with 16 samples.

Results

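Liver tumours carrying a Ha-ras mutation were compared with control livers that received no phenobarbital, using 6 of the series' 16 one-colour mouse miRNA arrays. The samples were picked by their titles, 3 tumours and 3 controls, and each RNA was hybridised to an array of its own. The remaining 10 arrays held 7 Ctnnb1-mutated tumours and 3 controls from mice given phenobarbital, a promoter of liver tumours. These served to estimate the spread and for 1 test of a difference between tumour kinds.

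All mice were male C3H/HeJ, an inbred strain prone to liver tumours. Tumours and controls alike carry the treatment agent H2O and a duration of 27 weeks in their labels. The design text describes 1 injection of diethylnitrosamine (DEN), a liver carcinogen, at 10 or 90 µg per g body weight, given at 2 or at 6 weeks of age, and then a diet phase of 28 to 36 weeks. The labels' protocols instead describe mice bought at 29 to 32 days of age and phenobarbital in water for 28 days. These accounts differ, and they do not settle the dose and age behind a sample or whether the controls were injected. The tumours are typed by their mutated gene, while the codon and the number of nodules behind an RNA are not given in the sources used here. The labels do not tie samples to animals, so the p-values measure the spread between these samples, which may be technical.

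MiRNAs are short RNAs cut from hairpins in longer transcripts. They pair with messenger RNAs mainly through the seed, bases 2 to 8 from the 5′ end, so miRNAs that share a seed form a family with overlapping targets. Members of a family often lie at different loci, and neighbours in a cluster are often cut from 1 transcript, either a gene of its own or an intron of a protein-coding host. Ha-ras encodes a small GTPase that signals through the MAP kinases to transcription factors such as AP-1. The miRNAs miR-21 and miR-31 have been reported downstream of this pathway, and let-7 miRNAs repress Ras transcripts.

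The mature sequences of the miRNAs on which the results turn are given from RefSeq (GRCm38.p6), with the seed in capitals. The first set holds miRNAs that were higher in tumours, beside the relatives miR-146a and miR-27b, which were not, to show how little the sequences differ.
miR-146b: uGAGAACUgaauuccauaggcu
miR-146a: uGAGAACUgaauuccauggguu
miR-27a: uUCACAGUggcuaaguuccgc
miR-27b: uUCACAGUggcuaaguucugc
miR-23a: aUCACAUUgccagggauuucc
miR-24: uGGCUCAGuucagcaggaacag
miR-21: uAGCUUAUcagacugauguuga
miR-34a: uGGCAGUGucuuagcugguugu
miR-31: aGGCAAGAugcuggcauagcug
miR-130a: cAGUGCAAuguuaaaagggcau

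Counted from 1 at the 5′ end, with the first-named miRNA's base first, miR-27a differs from miR-27b by C19U, and miR-146a differs from miR-146b by G18A and U21C. The seeds of both pairs are identical. The second set holds miRNAs that were lower in tumours, with let-7a and miR-25 as relatives that did not pass the test.
let-7b: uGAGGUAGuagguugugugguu
let-7c: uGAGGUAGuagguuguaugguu
let-7g: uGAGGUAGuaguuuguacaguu
let-7a: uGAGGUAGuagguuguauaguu
miR-199a-3p: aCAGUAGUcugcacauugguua
miR-10a: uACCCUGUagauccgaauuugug
miR-193: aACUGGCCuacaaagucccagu
miR-365: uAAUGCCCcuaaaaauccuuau
miR-92a: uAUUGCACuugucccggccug
miR-25: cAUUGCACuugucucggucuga

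By the same count let-7b differs from let-7c by G17A, let-7a from let-7c by A19G, and let-7a from let-7g by G12U and U18C. A probe's specificity for such near-identical sequences was not tested. In all, 83 of the 96 miRNAs tested matched a RefSeq mature sequence.

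A level below is the log2 of a scaled signal, and a difference is the tumour mean minus the control mean on that log2 scale. The lowest level possible was a floor at 4.64, to which smaller signals were raised. Of 566 mouse miRNAs, the 96 detected on every array of at least 1 of the 4 groups were tested, and 75 of these were detected on all 6 arrays. The other extreme was 6 miRNAs of the imprinted Dlk1-Dio3 region (miR-376b, miR-136, miR-377, miR-379, miR-127 and miR-299*), tested through Ctnnb1 tumours and detected on none of the 6. The 6 arrays detected 83 to 102 miRNAs each, and levels correlated across miRNAs at 0.971 to 0.976 between tumours and 0.926 to 0.979 between controls. Between a tumour and a control the correlations were 0.863 to 0.958, a range that overlaps that between controls. Tumour replicate 1 was on slide 1, tumour replicates 2 and 3 and control replicate 1 on slide 2, and control replicates 2 and 3 on slide 3, so slide and group overlap only on slide 2. miR-122, the main miRNA of hepatocytes, stood at 13.97, 14.33 and 14.47 in tumours and at 14.24, 14.21 and 14.14 in controls, and was the brightest miRNA tested, as a check of the liver label. The groups overlapped (difference 0.06, 95% interval -0.45 to 0.58).

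Of the 96 miRNAs, 28 passed the test (29.2%; limma adjusted p under 0.05), 9 of them higher in tumours (9.38%) and 19 lower (19.8%). An unadjusted p under 0.05 was reached by 34. The 3 tumours lay apart from the 3 controls for 41 of the 96 (42.7%), above them for 16 (16.7%) and below them for 25 (26.0%), and for 27 of the 28 called. miR-195 was the called miRNA whose groups overlapped. The differences were mostly small, and 9 of the 28 exceeded 2-fold, 5 higher and 4 lower. Of the 9 called higher, 3 (miR-146b, miR-31 and miR-96) entered the tested set only because every Ha-ras tumour array detected them, and of the 19 called lower, 3 (miR-143, miR-22* and miR-30e*) only because every untreated control array did. A miRNA kept through the group where it is high was favoured to differ in that direction, so these 6 add no support to the counts. miR-139-5p and miR-338-3p entered through both control groups. Over the 75 miRNAs detected on all 6 arrays alone, 20 were called, 6 higher and 14 lower, all among the 28.

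**Figure D1:**
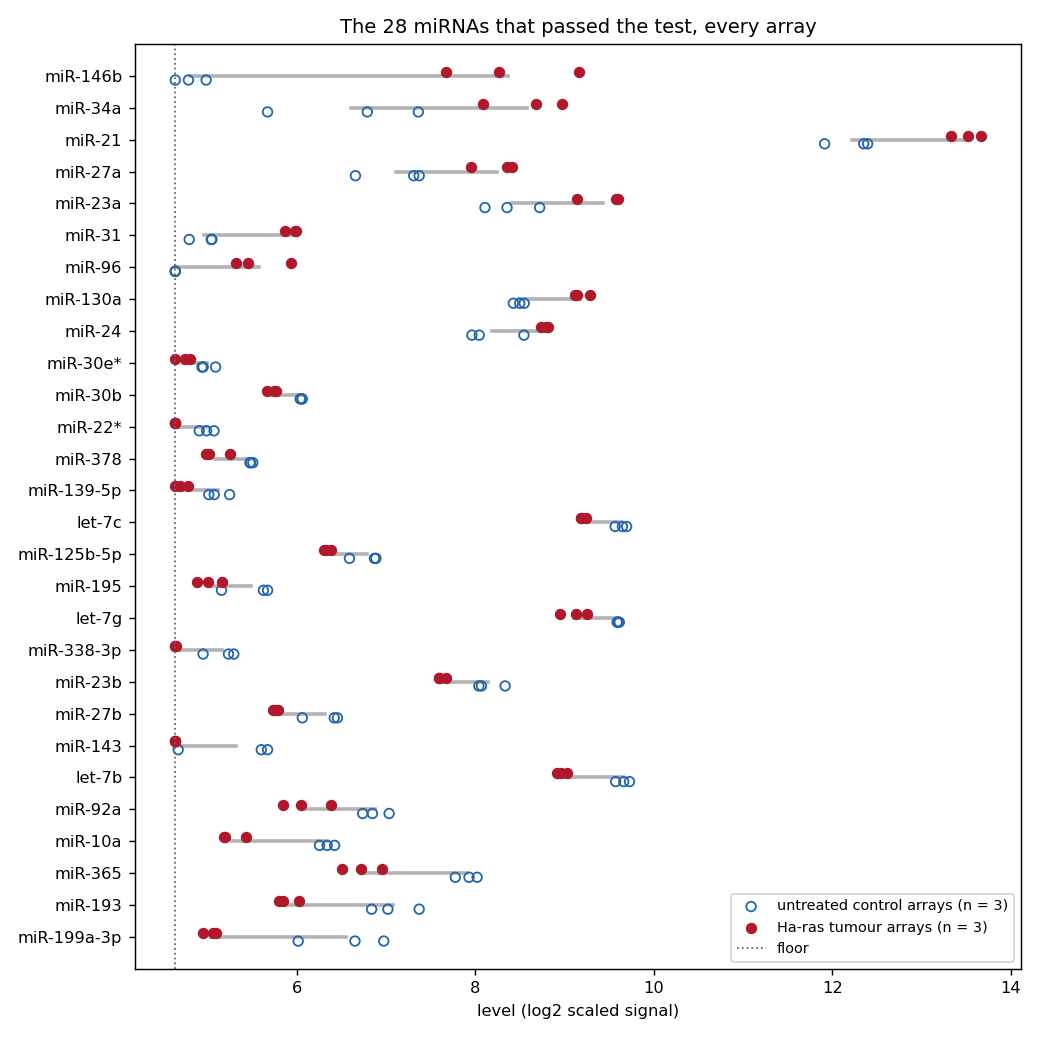
Levels (log2 scaled signal, horizontal axis) of the 28 called miRNAs on each of the 3 Ha-ras tumour arrays (filled) and 3 untreated control arrays (open), ordered by the difference; grey lines join the group means and the dotted line is the floor at 4.64. The highest row, miR-146b, spans 4.64 to 9.17, miR-21 is high in both groups, and miR-143, miR-338-3p and miR-22* lie on or next to the floor in all 3 tumours.

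The miRNA with the largest rise was miR-146b, which dampens NF-kappaB signalling by repressing adaptor kinases of the Toll-like receptors. Its level was 8.26, 9.17 and 7.67 in the tumours and 4.64, 4.79 and 4.99 in the controls. Every tumour was far above every control, and the tumours differed among themselves by more than 1 log2 unit. The difference was 3.56 (SE 0.24, limma adjusted p = 3.78e-08), 11.8-fold, and since only 2 of the 3 control arrays detected it, its size depends in part on the floor. The SD was 0.75 among the tumours and 0.17 among the controls. For miR-146b the 10 arrays of the other groups all lay at the floor with no spread, which lowers this SE and p-value. Its sole hairpin lies at chr19:46342762-46342870 (plus strand), inside no protein-coding gene of the RefSeq table. miR-146a, from chr11:43374397-43374461, has the same seed and the same role. Its levels were 5.49, 4.83 and 5.49 against 4.85, 5.17 and 5.44, with overlapping groups and a difference of 0.12 (95% interval -0.32 to 0.55). Within an array the log2 ratio of miR-146b to miR-146a was 2.77, 4.34 and 2.18 in tumours and -0.21, -0.38 and -0.45 in controls. Its size depends on the floor, where miR-146b lay in control replicate 1 and the dimmer of the miR-146a probes on all 6 arrays. The groups were apart (difference 3.45, two-sided exact permutation p = 0.10, the smallest that 3 against 3 can give, and 0.133 after Benjamini-Hochberg adjustment over the 8 pairs of miRNAs compared in this way).

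miR-34a, a direct target of p53 that represses cell cycle genes, followed with levels of 8.68, 8.97 and 8.08 against 7.36, 5.67 and 6.79. All tumours were above all controls, and the controls spread over more than 1 log2 unit. The difference was 1.97 (SE 0.48, limma adjusted p = 0.00845), 3.91-fold, and without control replicate 2, the lowest, the adjusted p was 0.0502. The other 2 tested p53-target miRNAs, miR-192 and miR-194, were not called, at -0.17 and 0.24.

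miR-21, widely known as an oncogenic miRNA, which lies inside Vmp1 on its strand (hairpin chr11:86584067-86584158, minus strand), was the brightest called miRNA. Its levels were 13.32, 13.66 and 13.52 in tumours and 11.91, 12.35 and 12.39 in controls. The gap between the groups was wider than either group's range (difference 1.28, SE 0.27, limma adjusted p = 0.00445), 2.43-fold. miR-31, from chr4:88910557-88910662, read 5.98, 5.99 and 5.88 in tumours against 5.04, 5.05 and 4.80 in controls. The 3 tumours were nearly alike, and the difference was 0.99 (SE 0.11, limma adjusted p = 1.91e-05), with detection on 2 of the 3 control arrays. This value depended on the processing, since it was 0.31 with normexp background correction and not called (limma adjusted p = 0.278), 0.44 with the floor doubled and 1.47 with scaling over all mouse probes, and its call also ended with the deposited values (limma adjusted p = 0.610). miR-221, which represses the cell cycle inhibitor p27, stood at 6.25, 6.05 and 5.93 against 5.37, 5.69 and 5.56. Its groups were apart as well, but it did not pass (0.53, limma adjusted p = 0.0549). Of the list of miRNAs reported downstream of Ras, MAPK or AP-1, 4 miRNAs long, 3 were tested and 2 of these rose, beside 9.38% called higher over all 96. Of the 5 listed NF-kappaB targets 3 were tested and 2 rose, miR-146b and miR-21. miR-21 is on both lists, and miR-31 and miR-146b entered the test through the tumours as stated above, so neither count is independent of the other or of the filter.

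miR-130a, a miRNA known from blood vessel growth and transforming growth factor signalling, read 9.14, 9.11 and 9.29 in tumours and 8.55, 8.43 and 8.50 in controls. The groups were tight and apart, and the rise was 0.69 (SE 0.15, limma adjusted p = 0.00536). miR-301a, its seed relative, was at 0.15 and not called. miR-96, of the miR-183 cluster on chromosome 6 and known from sensory cells, was well above background on all 3 tumour arrays (5.46, 5.94 and 5.32) and on no control array, where it lay at the floor. It was at least 1.76-fold higher in tumours (limma adjusted p = 0.0374), a bound that sets the tumour mean against the lowest detected signal of the control arrays.

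The miR-23, miR-27 and miR-24 genes form a pair of clusters, whose members went opposite ways. The miR-23a cluster at chr8:84208518-84208592 (the miR-23a hairpin) lies inside no protein-coding gene. miR-23a, a regulator of metabolism and muscle growth, read 9.60, 9.57 and 9.13 in tumours against 8.11, 8.72 and 8.36 in controls, a rise of 1.04 (SE 0.25, limma adjusted p = 0.00821). miR-27a, which represses lipid metabolism genes, rose from 6.66, 7.37 and 7.31 to 8.41, 8.35 and 7.96, by 1.12 (SE 0.31, limma adjusted p = 0.0146). The tumours were above the controls for both.

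The paralogous cluster lies within Aopep on chromosome 13, where the miR-27b hairpin spans chr13:63300712-63300784. miR-23b read 7.67, 7.59 and 7.60 in tumours and 8.07, 8.33 and 8.04 in controls (-0.53, SE 0.13, limma adjusted p = 0.00821). miR-27b read 5.76, 5.74 and 5.79 against 6.06, 6.42 and 6.46 (-0.55, SE 0.17, limma adjusted p = 0.0253). The dimmer miR-27b probe lay at the floor in all 3 tumours, so the size of this fall depends on the floor. The brighter miR-27b probe gave -0.64. Tumours were below controls for both miR-23b and miR-27b, although scaling over all mouse probes put miR-23b at 0.04. miR-24, whose mature sequence is encoded in both clusters, rose by 0.60 (SE 0.19, limma adjusted p = 0.0272), with tumours at 8.81, 8.74 and 8.79 and control replicate 2 closest to them at 8.55. Within arrays the log2 ratio of miR-23a to miR-23b was 1.93, 1.98 and 1.54 in tumours and 0.04, 0.39 and 0.32 in controls. The ratio of miR-27a to miR-27b was 2.65, 2.61 and 2.16 against 0.59, 0.95 and 0.85. Both ratios were apart by more than 1 log2 unit between any tumour and any control (differences 1.57 and 1.67, each with a two-sided exact permutation p = 0.10, adjusted 0.133). The members of each pair had already parted the groups in opposite directions. That the ratios parted, and their p-values, were therefore fixed in advance and add no support. The size of the miR-27a to miR-27b ratio also depends on the floor.

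**Figure D2:**
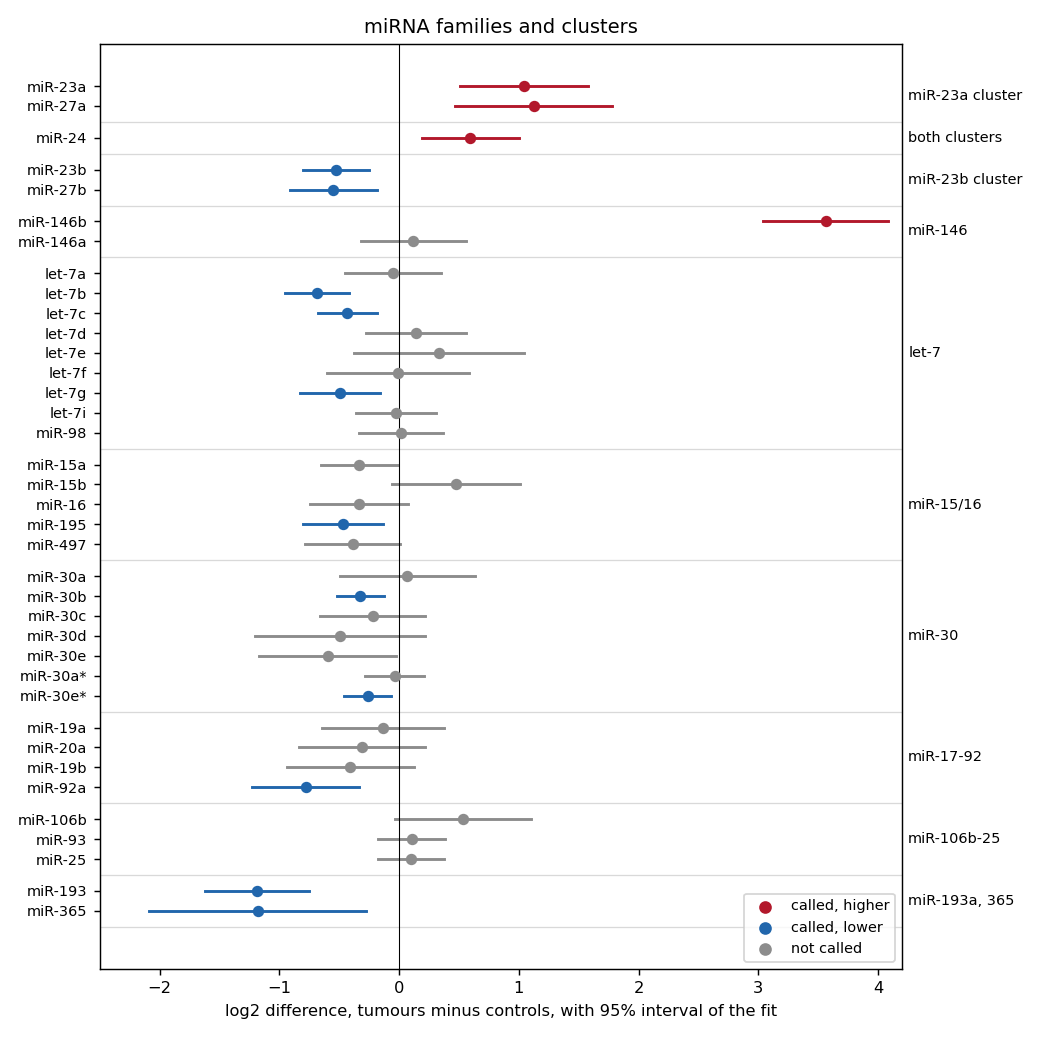
Log2 difference (tumours minus controls, horizontal axis) with the 95% interval of the fit for tested members of families and clusters, red where called higher, blue where called lower and grey where not called. The miR-23a cluster lies to the right at 1.04 and 1.12 and the miR-23b cluster to the left at -0.53 and -0.55, miR-146b stands at 3.56 beside miR-146a at 0.12, and let-7b, let-7c and let-7g are the let-7 members below 0 beyond their intervals.

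The largest fall among called miRNAs was that of miR-199a-3p, a miRNA of stellate cells and fibroblasts. Its levels were 5.06, 4.95 and 5.10 in tumours and 6.02, 6.98 and 6.65 in controls, with the tumours close together and the controls spread over nearly 1 log2 unit. It fell by 1.51 (SE 0.25, limma adjusted p = 0.000509), 2.85-fold. Its dimmer probe lay at the floor in all 3 tumours, so the size of the fall and the closeness of the tumours depend on the floor. On its brighter probe miR-199a-3p differed by -1.61. Its hairpins lie on the strand opposite to dynamin genes, Mir199a-1 in Dnm2 on chromosome 9 and Mir199a-2 in Dnm3 on chromosome 1, and miR-199b-3p has the same mature sequence in RefSeq. miR-143, of smooth muscle and stroma, was detected on 3 control arrays and no tumour array and was at least 1.40-fold lower (limma adjusted p = 0.0146). Its control levels were 4.67, 5.60 and 5.67, so that control replicate 1 was next to the floor, and within slide 2, which holds that control alone, the difference was -0.03. In bulk tissue, fewer cells of a type and less RNA per cell cannot be told apart. Of the 8 mesenchymal and smooth muscle markers 2 were tested and both were called lower, beside 19.8% called lower over all 96. As stated above, miR-143 entered the test only through the untreated controls, so its call adds no support to this count. The summed level of the 2 markers on the log2 scale was 5.80 to 5.89 in tumours and 6.50 to 7.45 in controls. The tumour sums are upper limits, because miR-143 and the dimmer miR-199a-3p probe entered them at the floor value. miR-199a-3p is the 1 member detected on all 6 arrays. miR-214, miR-145, miR-133a and miR-1, of the same list, were detected on 0 of the 6 arrays.

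The summed levels of the other marker lists did not part the groups. Signals were summed before the log2, so the sums mostly reflect the brightest member, miR-122 for hepatocytes, miR-142-3p for leukocytes and miR-451 for erythroid cells. The hepatocyte markers, of which 8 of 9 were tested, summed to 14.34 to 14.80 in tumours and 14.56 to 14.67 in controls. miR-378, a metabolic miRNA and 1 of these 8, fell by 0.41 (limma adjusted p = 0.0162), from 5.49, 5.51 and 5.48 to 5.01, 4.99 and 5.25. miR-22, also a hepatocyte marker, was lower in all tumours than in all controls but did not pass (-0.54, limma adjusted p = 0.0549). For the endothelium, miR-126-3p stood at 8.97 to 9.34 in tumours and 9.24 to 9.55 in controls (-0.30, limma adjusted p = 0.141). Leukocyte markers, 3 of 7 tested, summed to 7.46 to 8.83 against 7.87 to 8.81, and erythroid markers, 2 of 3 tested, to 10.51 to 12.40 against 10.31 to 12.29, with 0 members of either list called. miR-142-5p, miR-150, miR-155 and miR-342-3p, of leukocytes, were detected on 0 of the 6 arrays, as were miR-200c, miR-141 and miR-429 of biliary epithelium, a list with 0 of 5 members tested. The part of these cell types in the miRNAs that rose or fell was not tested.

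miR-10a, encoded in the Hoxb cluster on chromosome 11, fell in every tumour, from 6.34, 6.26 and 6.43 to 5.43, 5.18 and 5.20. The gap was wider than the range of either group, and the difference was -1.07 (SE 0.17, limma adjusted p = 0.000509), 2.10-fold. miR-193, which targets Ras pathway and apoptosis regulators, read 5.85, 5.81 and 6.02 in tumours and 7.02, 7.37 and 6.84 in controls (-1.18, SE 0.20, limma adjusted p = 0.000694). miR-365, its partner, read 6.96, 6.72 and 6.51 against 8.02, 7.93 and 7.78 (-1.18, SE 0.42, limma adjusted p = 0.0474), and it lost its call without any 1 of the 6 arrays (adjusted p up to 0.115). Its difference in those fits was -1.30 to -1.07. The SD of miR-365 was 0.23 in tumours, 0.12 in controls and 0.78 among the Ctnnb1 tumours. The shared fit carries that last spread into this SE. The hairpins of Mir193a and Mir365-2 start at 79711969 and 79726400 on the plus strand of chromosome 11, and a second miR-365 copy lies beside Mir193b on chromosome 16. Within arrays the log2 ratio of miR-193 to miR-365 overlapped between the groups, at -1.11, -0.91 and -0.48 in tumours and -0.999, -0.56 and -0.94 in controls (difference -0.00234, two-sided exact permutation p = 1). The dimmer miR-193 probe lay at the floor in all 3 tumours, so the size of the miR-193 fall and of this ratio depends on the floor. The brighter miR-193 probe gave a difference of -1.53, and the miR-365 probes gave -1.17 and -1.19.

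Of the 9 let-7 family members, all tested, 3 fell and 0 rose, beside 19.8% called lower over all 96, and the family median of -0.03 lay next to the overall -0.06. let-7b read 9.03, 8.96 and 8.92 in tumours and 9.73, 9.57 and 9.66 in controls, a fall of 0.68 (SE 0.12, limma adjusted p = 0.001). let-7c read 9.24, 9.18 and 9.19 against 9.65, 9.57 and 9.69 and fell by 0.43 (SE 0.12, limma adjusted p = 0.0146). let-7g, inside Wdr82 at chr9:106178840-106178927, read 9.12, 9.25 and 8.95 against 9.59, 9.60 and 9.61 and fell by 0.49 (SE 0.16, limma adjusted p = 0.0272). The 3 stand apart from their controls in every tumour, while under scaling over all mouse probes let-7c turned to 0.14 and let-7g to 0.08. let-7b and let-7c-2 are neighbours in the host transcript Lncppara on chromosome 15. The second let-7c copy lies beside miR-99a on chromosome 16, and miR-99a was at -0.18 and not called. The cluster list puts a copy of miR-125b-5p with them, which was called lower at -0.44. Its copy placed in the RefSeq table lies in Mir100hg on chromosome 9. Of the 3 tested members of this listed cluster 2 were called lower, let-7c among them, beside 19.8% over all 96.

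The let-7a-1, let-7f-1 and let-7d cluster on chromosome 13 stayed near 0, with let-7a at -0.05, let-7f at -0.01 and let-7d at 0.14. let-7a was read at 10.52, 10.39 and 10.16 against 10.49, 10.37 and 10.37, and the groups overlapped. The within-array log2 ratio of let-7b to let-7a was -1.49, -1.43 and -1.25 in tumours and -0.76, -0.80 and -0.71 in controls, apart in every array (difference -0.63, two-sided exact permutation p = 0.10, adjusted 0.133). miR-98, let-7i and let-7e were not called either, at 0.01, -0.03 and 0.33.

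miR-92a, of the growth-promoting miR-17-92 cluster (host Mir17hg on chromosome 14, with a second copy on chromosome X), read 5.85, 6.05 and 6.38 in tumours and 6.85, 7.04 and 6.74 in controls. Tumours were below controls (-0.78, SE 0.21, limma adjusted p = 0.0146), and the call ended without control replicate 2 or tumour replicate 1 (adjusted p up to 0.0632). It was the 1 member called of 4 tested in the cluster, beside 29.2% called over all 96. miR-20a was at -0.31, miR-19b at -0.41 and miR-19a at -0.13. miR-25, with the seed of miR-92a and 1 of the 3 miRNAs within Mcm7, stood at 5.20, 5.33 and 5.39 against 4.95, 5.32 and 5.34. Its groups overlapped, and 0 of the 3 Mcm7 miRNAs were called, with miR-106b at 0.53 and miR-93 at 0.11. The log2 ratio of miR-92a to miR-25 was 0.65, 0.73 and 0.995 in tumours and 1.90, 1.72 and 1.39 in controls, with the dimmer miR-25 probe at the floor on all 6 arrays, and again apart (difference -0.88, two-sided exact permutation p = 0.10, adjusted 0.133).

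Of the 7 tested miR-30 miRNAs, a family abundant in epithelia, 2 fell, beside 19.8% called lower over all 96. miR-30a, miR-30a*, miR-30c and miR-30d were at 0.07, -0.04, -0.22 and -0.50, and none of these passed. miR-30b read 5.67, 5.77 and 5.74 in tumours against 6.06, 6.06 and 6.04 and fell by 0.33 (limma adjusted p = 0.0146). The star strand miR-30e* fell by 0.26 (limma adjusted p = 0.042), close to the floor, and moved to 0.01 with the scaling over all mouse probes. The main strand of the same hairpin, miR-30e within Nfyc, read 5.53, 5.65 and 5.88 against 6.19, 6.44 and 6.23, apart but not called (-0.60, limma adjusted p = 0.119). In the miR-22 hairpin, too, only the star strand was called. miR-22* lay at the floor in all 3 tumours, though detected on 2 of them, and at 4.99, 5.08 and 4.91 in controls (limma adjusted p = 0.0146). The bright main strand miR-22 read 10.92, 11.17 and 11.54 against 11.75, 11.85 and 11.64 (-0.54, limma adjusted p = 0.0549). The within-array log2 ratio of main to star strand was apart between the groups for miR-30e (difference -0.34, two-sided exact permutation p = 0.10, adjusted 0.133). For miR-22 it overlapped (difference -0.18, two-sided exact permutation p = 0.40, adjusted 0.457), and both ratios depend on the floor. Tumours were below controls for miR-30b, miR-30e, miR-30e*, miR-22 and miR-22*.

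In the miR-15 and miR-16 family, known for restraining the cell cycle, 1 of 5 tested members was called, beside 29.2% over all 96. miR-195 fell by 0.47 (limma adjusted p = 0.0366), with tumours at 5.17, 4.88 and 5.01 and controls at 5.16, 5.63 and 5.67, so that control replicate 1 lay among the tumours, and the all-probe scaling put it at 0.02. Its cluster partner miR-497 was at -0.39, miR-15a at -0.33, miR-16 at -0.34 and miR-15b at 0.48, none called. Outside these families, miR-125b-5p, which targets p53, fell by 0.44 (limma adjusted p = 0.0231), miR-139-5p, within Pde2a and known as a suppressor of invasion, by 0.41 (limma adjusted p = 0.0146), and miR-338-3p, within Aatk, was detected on no tumour array and was at least 1.26-fold lower (limma adjusted p = 0.00536).

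By seed, the 83 miRNAs with a sequence held 14 seeds shared by 2 or more, covering 42 miRNAs. The other 13, among them the called miR-23b, miR-30b, miR-143 and miR-378, were not matched and are left out of these counts, so miR-23a is counted as alone although miR-23b was tested and called the other way. A call fell in 7 of the 14 shared seeds, and among these that of miR-27a and miR-27b had calls in both directions. Of the 42 with a shared seed 3 rose and 7 fell (23.8%), and of the 41 with a seed of their own 6 rose and 8 fell (34.1%), beside 29.2% over all tested. By locus, 81 miRNAs were placed in the RefSeq table. Of the 30 inside a protein-coding gene on the same strand 2 rose and 5 fell (23.3%), and of the 51 outside 7 rose and 10 fell (33.3%). The 7 in hosts were miR-21 in Vmp1, miR-27b in Aopep, miR-24 through its copy Mir24-1 in Aopep (Mir24-2 lies in no gene), let-7g in Wdr82, miR-139-5p in Pde2a, miR-338-3p in Aatk and miR-30e* in Nfyc. miR-23b was not placed and is not counted here. With another miRNA within 10 kb, 4 of 45 rose and 8 fell (26.7%), and with none, 5 of 36 rose and 7 fell (33.3%). These shares lie near the 29.2% of all tested miRNAs. Members of a cluster often share a transcript, which was not measured here.

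By signal, the 96 miRNAs were split into 3 equal classes of 32 on their mean level over all 16 arrays. In the bright class, with mean levels of 7.50 to 13.96, 4 rose and 4 fell (25%), with a median difference of -0.04. In the middle class, 5.48 to 7.47, 2 rose (miR-34a and miR-27a) and 8 fell (31.2%), with a median of -0.33. In the dim class, up to 5.41, 3 rose (miR-146b, miR-31 and miR-96) and 7 fell (31.2%), with a median of 0. All 3 risers of the dim class passed the filter only through the Ha-ras tumours. The shares lie near the 29.2% of all tested miRNAs. The median size of the difference, either sign, was 0.28, 0.45 and 0.19 in the bright, middle and dim classes. The floor bounds the differences of the dim class. The miRNA with the widest spread between arrays of a group, miR-494 of the middle class, was named after its values were seen and read 4.89, 8.48 and 6.57 in tumours against 6.91, 6.13 and 12.29 in controls, with overlapping groups.

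**Figure D3:**
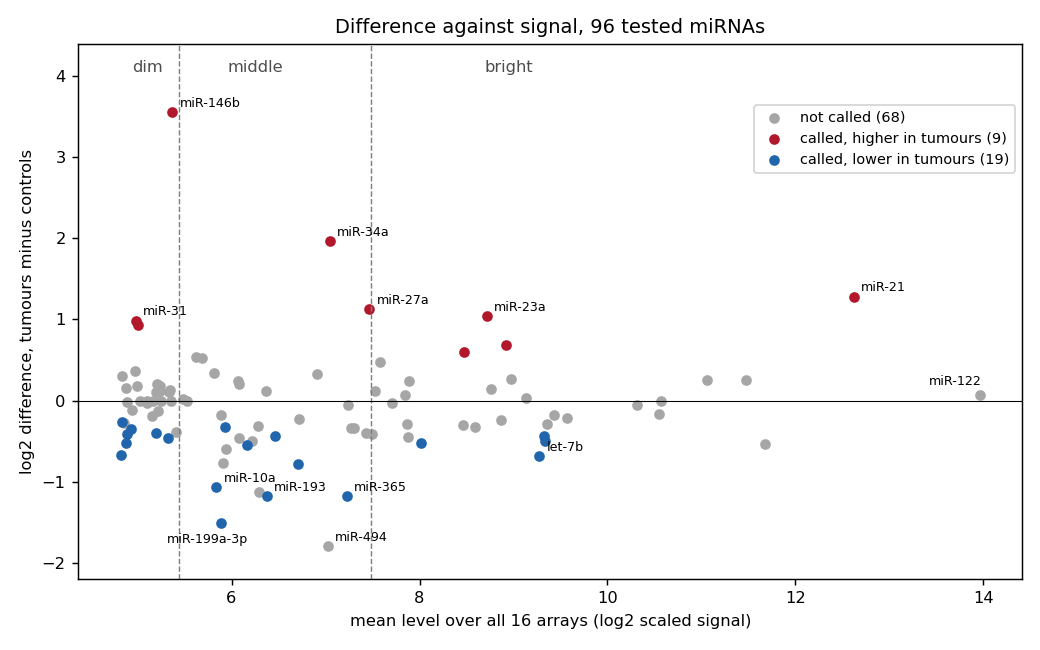
Log2 difference (tumours minus controls, vertical axis) against the mean level over all 16 arrays (log2 scaled signal, horizontal axis) for the 96 tested miRNAs; dashed lines part the dim, middle and bright classes. The 9 called higher and 19 called lower lie in every class, miR-146b stands alone at 3.56 in the dim class, and miR-122 lies at 0.06 at the bright end.

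Most miRNAs were read by a pair of probes, whose differences can be compared. For 27 of the 28 called miRNAs the brightest probe alone parted the groups, and for 20 both the brightest and the dimmest did so in the same direction. The calls rest on the mean of these same probes, which already parted the groups for 27 of the 28, so this is no independent check. The brightest probes of uncalled miRNAs such as miR-148b, miR-15b, miR-22 and miR-221 parted the groups as well. Of the 12 whose dimmest probe was detected on all 6 arrays, both probes gave differences within 0.15 of each other, as for miR-21 (1.21 and 1.35), miR-23a (1.01 and 1.07), miR-27a (1.13 and 1.12), miR-365 (-1.19 and -1.17) and let-7b (-0.74 and -0.63). For 6 called miRNAs the dimmest probe was detected on none of the 6 arrays and added a value at or next to the floor to the mean. The brightest probes of 4 of them gave larger differences than the means, -0.87 for miR-125b-5p, -0.65 for miR-30b, -1.13 for miR-139-5p and -0.53 for miR-30e*. For miR-338-3p and miR-22* the brightest probe lay at or next to the floor in the tumours and gives no exact difference. The brightest-probe values of miR-139-5p and miR-30e* also depend on the floor, where all probes of each lay in 1 tumour. miR-146b was read at 9.62 in tumours and 4.97 in controls on its brightest probe, which 2 of the 3 control arrays detected, and at 7.11 on the dimmest, which no control array detected. Its differences of 4.65 and 2.47 therefore depend on the floor. With the brightest probe of each miRNA in place of the mean, a choice made after the data were seen, 30 miRNAs were called, all 28 and also miR-148b and miR-361.

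**Figure D4:**
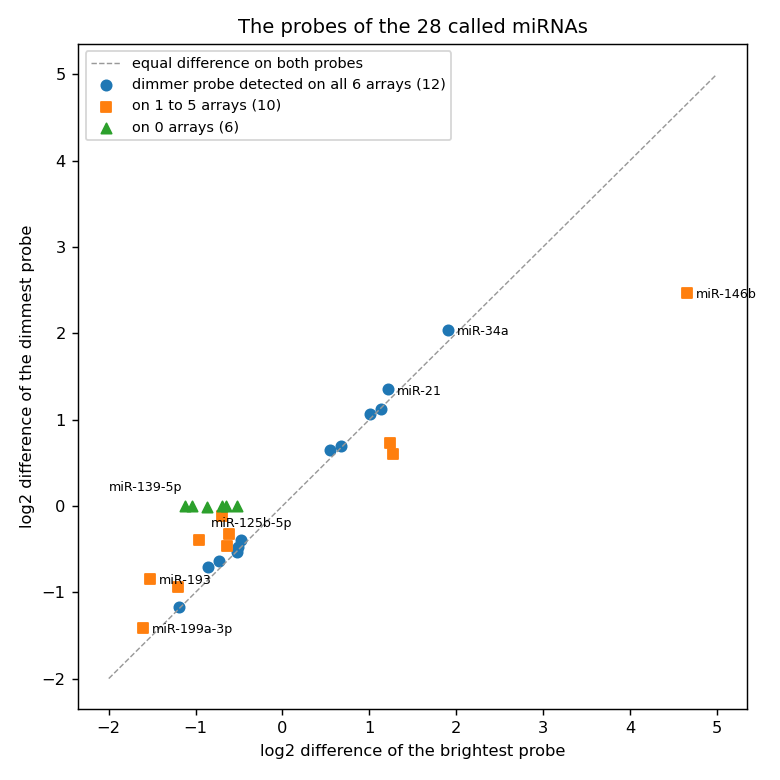
Log2 difference (tumours minus controls) of the dimmest probe (vertical axis) against that of the brightest (horizontal axis) for the 28 called miRNAs, marked by the number of the 6 arrays on which the dimmest probe was detected. The 12 with a detected dimmest probe lie along the dashed line of equal difference, the 6 with an undetected one lie at or next to 0 on the vertical axis, and miR-146b lies at 4.65 and 2.47, values that depend on the floor in controls.

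Next, each difference was set against that between Ctnnb1-mutated tumours and phenobarbital controls, which share no array with it, although genotype and phenobarbital differ together. In the same fit 2 of 96 miRNAs (2.08%) passed, and 17 had an unadjusted p under 0.05. miR-146b changed by 3.56 more in Ha-ras tumours (SE 0.32, limma adjusted p = 1.44e-06), but it was detected on 0 of the 10 arrays of the Ctnnb1 arm, where no difference was measured. Those 10 arrays lay at the floor with no spread, which lowers this SE and p-value too. miR-31 changed by 1.08 more (SE 0.15, limma adjusted p = 0.000168), and in that arm it was detected on 1 of 7 tumours and 1 of 3 controls, at mean levels of 4.67 and 4.76 next to the floor. Both entered the tested set only through the Ha-ras tumours, and the floor kept their Ctnnb1 differences near 0, so these values describe the Ha-ras rise and do not compare measured effects. The call for miR-31 ended with normexp (limma adjusted p = 0.123), the total gene signal (0.190) and the deposited values (0.424), whereas that for miR-146b held in each of these. For miR-34a, miR-23a, miR-27b, miR-92a and miR-193 the Ha-ras difference minus the Ctnnb1 difference was 1.74, 1.06, -0.69, -0.78 and -0.73, and none of these passed (limma adjusted p from 0.139 to 0.164). miR-199a-3p and miR-10a were lower in both tumour kinds, at -1.16 and -0.88 in the Ctnnb1 arm, and the differences between the arms of -0.35 and -0.19 did not pass either (limma adjusted p = 0.607 and 0.624).

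The balance of rises and falls depended on the scaling. Scaling over all mouse probes, whose 75th percentile was 2.88 to 4.73 signal units on the 6 arrays against 459 to 1248 over the probes detected on all arrays, called 12 higher and 0 lower and moved the median of all differences from -0.06 to 0.28. Quantile scaling called 12 higher and 11 lower. The total gene signal moved the median to -0.16 and called 9 higher and 20 lower, and normexp background correction moved it to -0.23 and called 6 higher and 7 lower. Relative to the median of all tested miRNAs, the 9 called higher stayed above it and the 19 called lower below it under all of these and with the deposited values. A changed scaling constant shifts all miRNAs above the floor together. For such a scaling the side of the median was therefore largely fixed in advance and adds no support to the calls. The 5 of the 19 that took the opposite sign under scaling over all mouse probes had values of -0.14 for let-7c to -0.27 for miR-30e* relative to that median.

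**Figure D5:**
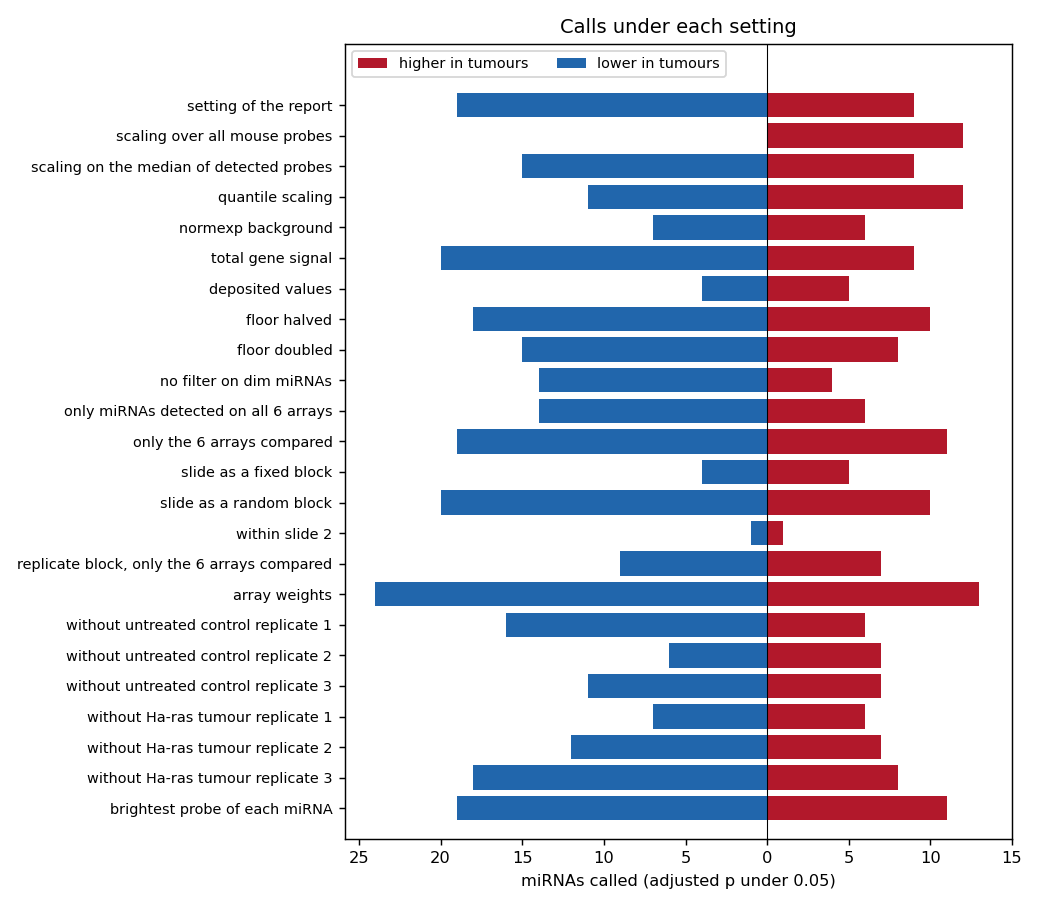
Number of miRNAs called (limma adjusted p under 0.05) lower (bars to the left) and higher (bars to the right) in tumours under each setting. The setting of the text gives 19 lower and 9 higher, scaling over all mouse probes 0 lower and 12 higher, and slide as a fixed block 4 lower and 5 higher.

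A fixed slide term in the fit left 9 calls, all among the 28: miR-146b (3.70), miR-21 (1.59), miR-27a (1.45), miR-23a (1.22), miR-31 (0.87), let-7b (-0.70), miR-193 (-1.05), miR-10a (-1.18) and miR-199a-3p (-1.31). Within slide 2, where 2 tumours met 1 control, the lone control has no spread of its own and is assumed to vary like the other groups on the slide. There 2 were called, miR-21 (1.68) and miR-10a (-1.15), and the differences of miR-146b, miR-27a, miR-23a, miR-31, let-7b, miR-193 and miR-199a-3p were 3.78, 1.49, 1.25, 0.89, -0.79, -1.11 and -0.99. miR-34a was at 1.36 under the block and 1.16 within slide 2, neither called. Leaving out each of the 6 arrays in turn, 10 miRNAs passed every time. Of the higher ones these were miR-21, miR-23a, miR-31, miR-130a and miR-146b, and of the lower ones let-7b, miR-10a, miR-193, miR-199a-3p and miR-338-3p. The number called fell to 13 without control replicate 2 or tumour replicate 1 and to 18 without control replicate 3. let-7c ended without control replicate 3 (limma adjusted p = 0.0510), miR-23b and miR-34a without control replicate 2 (both 0.0502), and miR-27a without control replicate 1 or tumour replicate 1 (up to 0.0592). Any of at least 2 arrays, in each case with control replicate 2 or 3 or tumour replicate 1 among them, ended the calls of the other 14. Their highest adjusted p ran from 0.0632 for miR-92a and miR-30b, through 0.0679 for miR-378, 0.0782 for miR-139-5p and miR-22*, 0.0878 for miR-143, 0.0881 for miR-125b-5p, 0.0950 for let-7g and 0.0956 for miR-27b, to 0.115 for miR-365, 0.118 for miR-24, 0.144 for miR-195, 0.151 for miR-96 and 0.158 for miR-30e*.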

How the data were processed

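Total RNA carrying Cy3 was measured on Agilent mouse miRNA arrays of 1 colour, as the labels' protocols state. The deposited spot intensity values come from Feature Extraction 10.7.3.1, per the file headers, and are background-subtracted but not normalised between arrays. The deposited log2 table of 147 entries was an alternative only, since its scaling and its handling of low values are not given in the sources used here. The submitters' processing notes name R 2.14.1.

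Outlier-flagged spots were dropped and the others averaged per probe. Detection meant that the majority of a probe's spots were well above background. Per array, signals were divided by their 75th percentile, taken over 117 mouse probes detected on all 16 arrays, and multiplied by a common constant. Values under a floor of 25.0, the lowest detected signal of an array taken as a median across arrays, were set to it. After log2, the probes of a miRNA were averaged. limma 3.58.1 (R 4.3.3; lmFit, eBayes) fitted 4 group means over 16 arrays and 96 miRNAs, with Benjamini-Hochberg adjustment and a threshold of 0.05. The procedure was tested on simulated data. A miRNA detected on no array of a group has a bound only. Values at the floor have no spread, which lowers the fitted spread of such miRNAs. Arrays per group limit the precision.

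Groups came from the sample titles. Every called miRNA was named, with the tested members of listed families and clusters that hold one, the bounds, the tested marker miRNAs and miR-122. Alternatives covered scaling, background, floor, filter, probes, slide, replicate block and left-out arrays. The miRNAs, lists and tests were chosen with earlier results of these data known.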

Additional observations from a re-analysis of the deposited data

Results flagged for a closer look

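Of the 96 miRNAs tested, 2 differed between the arms, in that the tumour effect with a Ha-ras mutation exceeded that with a Ctnnb1 mutation by 3.56 for miR-146b and by 1.08 for miR-31 on the log2 scale. Both entered the tested set only through the Ha-ras tumours, and in the Ctnnb1 arm miR-146b was detected on no array and miR-31 on 2 of 10, so their differences there were near 0 by the floor. Genotype and phenobarbital differ together between the arms and cannot be told apart.

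Outside the tested set, 5 miRNAs were well above background on 2 of the 3 tumour arrays and on 0 of the 3 control arrays. Their mean tumour levels on the log2 scale were 5.03 for miR-125a-5p, 4.88 for miR-350, 4.86 for miR-152, 4.70 for miR-31*, the other strand of the miR-31 hairpin, and 4.67 for miR-183, a neighbour of miR-96. All lie next to the floor of 4.64.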

How the results depend on the processing

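Against 28 miRNAs called, 12 were called with scaling over all mouse probes, 13 with normexp, 9 with the deposited values, 18 with no filter on dim miRNAs (566 tested), 9 with slide as a fixed block, 2 within slide 2, and 13 to 26 with 1 array left out. In the other settings run, apart from the replicate block, the count stayed within 1.5 times of 28. Scaling over all mouse probes turned let-7c to 0.138, let-7g to 0.0767, miR-23b to 0.0432, miR-195 to 0.0222 and miR-30e* to 0.00652, miR-22* stood at 0 with the floor doubled, and the other 22 called miRNAs kept their sign under every setting run. Against 2 miRNAs that differed between the arms, normexp, the total gene signal and the deposited values each gave 1, miR-146b, the brightest probe 4, and leave-one-out fits 2 to 3. A replicate block gave 16 calls, but the replicate numbers did not pair the arrays, since the correlations of same-numbered tumours and controls were 0.58, -0.68 and -0.09. The cause of these changes was not tested. Depth is limited by the floor, which holds many dim values.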

Other observations

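Chosen after their values were seen, 4 miRNAs outside the tested set were detected on 2 of the 3 control arrays and on 0 of the 3 tumour arrays. They were miR-100, miR-203, miR-455 and miR-199b*, the last a strand of a hairpin whose other strand equals miR-199a-3p. Their mean control levels on the log2 scale were 4.82, 4.74, 4.91 and 4.88, against the floor of 4.64 in tumours.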
